A study of Mus musculus with 10 samples.

Results

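Subcutaneous islet grafts removed on day 10 after implantation were compared with those removed on day 7, on 4 of the 10 Affymetrix mouse arrays of the study: the PSI and the PSI-F graft of day 10, against the PSI and the PSI-F graft of day 7. A PSI graft held pancreatic islets of male Wistar rats in a solidified scaffold of rat plasma, and a PSI-F graft held cultured skin fibroblasts of nu/nu mice as well. The recipients of all 4 grafts were young male Swiss nu/nu mice, immunodeficient animals that lack working Foxn1, made diabetic with streptozotocin before a graft was laid through a skin incision onto the abdominal muscle. Grafts of days 1 and 3 and subcutaneous biopsies of healthy (Control) and diabetic (Diabetic) mice without a graft were used for context. Each condition had 1 array, a part of each graft served for RNA, and different mice were killed on each day, so a difference between days is also one between mice. The arrays carry mouse probes and read rat RNA as far as it binds them. As a check of the labels, the insulin gene Ins2 stood at a log2 level of 7.70 in PSI and 9.40 in PSI-F on day 10, against 10.16 (PSI) and 9.95 (PSI-F) on day 7, and 2.27 in Control and 3.13 in Diabetic, so both days' grafts carried insulin signal far above tissue without a graft.

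A subcutaneous implant is a wound. Its bed is filled first by neutrophils and macrophages, then by granulation tissue of fibroblasts, new vessels and provisional matrix, which is later remodelled. The skin above holds hair follicles that pass through growth (anagen), regression and rest. In anagen, matrix cells of the bulb build a shaft from hair keratins and from the keratin-associated proteins that cross-link them, an inner root sheath moulds it, and melanocytes of the bulb supply pigment. In nude mice follicles form and enter anagen, but the shaft is defective, since Foxn1 is needed for its differentiation.

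Calls of 2 kinds are used, on 1 probe set for each of 18193 genes. limma, fitted to the 4 arrays with graft type as the pair and adjusted by Benjamini-Hochberg over 45037 probe sets, gave 703 genes (3.86%) that rose on day 10 and 384 (2.11%) that fell, at an adjusted p under 0.05. The second call, with no test, asks for a 2-fold difference or more in the same direction in PSI and in PSI-F: 286 genes (1.57%) were that much higher on day 10 and 85 (0.467%) that much lower. In all, 11660 genes (64.1%) had the same sign in both graft types, with medians over all genes of -0.03 in PSI and 0.00 in PSI-F on the log2 scale. Single graft types gave larger numbers, 657 genes past 2-fold either way in PSI and 1065 in PSI-F, of which 383 passed in both and 12 of these in opposite directions. Just inside the fold threshold stood Tnfrsf18, Nipal4 and Evpl, each with a smaller difference of 1.00, and just outside it Lef1 at 0.99. On the lower side Gng11 and Tlr13 stood inside at -1.0008 and -1.001, and Enpp4 and Prkag3 outside at -0.99. The p-values measure how far the day difference disagreed between PSI and PSI-F, with 1 residual degree of freedom per probe set. Level gaps between the graft types that were alike on both days do not enter. That spread was moderated over all probe sets, whose shared estimate weighed as 8.216 degrees of freedom. The 2 graft types stand in for replicates, so the p-values do not measure the spread between mice. Differences are means of both graft types on the log2 scale, and ± gives limma's standard error. With all 8 grafts in the fit, 262 of the 703 genes that rose and 97 of the 384 that fell were still called, and after cyclic loess normalization 254 and 104. Where a list is said to have no member called in 1 direction, 0 to 2 of its genes passed an unadjusted p of 0.05 in that direction by limma unless a number is given. The shares of 3.86%, 2.11%, 1.57% and 0.467% are the background for each list's counts. Among all 18193 genes, 1939 were higher and 1716 lower at an unadjusted p under 0.05 by limma. With all 8 grafts these numbers were 1897 and 1598. In both graft types 5422 were higher and 6238 lower. Whether fewer cells of a type were present or each held less RNA cannot be told apart in these bulk samples.

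**Figure D1:**
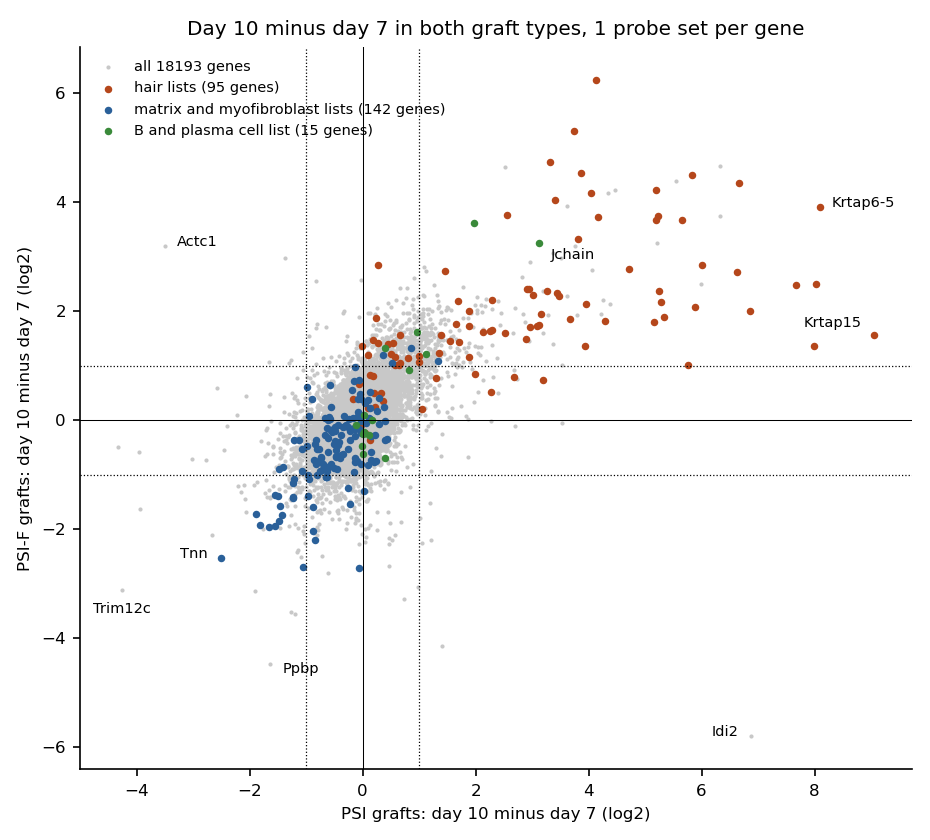
Difference between day 10 and day 7 (log2) in PSI grafts (horizontal axis) and in PSI-F grafts (vertical axis), 1 point per gene, with the 95 genes of the 3 hair lists, the 142 of the matrix and myofibroblast lists and the 15 of the B and plasma cell list coloured, and dotted lines at 2-fold. Hair genes fill the upper right, matrix genes lie mostly below 0 on both axes, and Idi2 and Actc1 stand apart with opposite signs.

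The genes that were higher on day 10 were led by those of the growing hair follicle. Of 95 distinct genes in 3 lists (hair keratins, keratin-associated proteins, and follicle regulators with the inner root sheath), 71 rose, none fell, and 60 were at least 2-fold higher in both graft types. Backgrounds over all genes were 3.86% and 1.57%. The list genes made up 60 of the 286 genes higher by 2-fold in both. Of all 286, in or out of the lists, 27 had symbols beginning in Krtap. Of the 20 genes with the largest increase shared by both graft types, 15 were named Krtap and 19 lay on chromosomes 11 and 16, and the smaller of a gene's 2 differences was 3.32 or more in each of the 20. In GRCm38.p6, the stretch of chromosome 11 from 99550132 to 99993994 that holds the Krtap cluster had 13 genes on the array, of which 12 were at least 2-fold higher. The cluster on chromosome 16, from 88610709 to 89571183, had 27, of which 24 were.

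The 250 bases before the annotated start of 5 of these genes are printed to show what the promoters of the leading hair genes share. They come from the RefSeq promoter table of build GRCm38.p6, on the minus strand and 5′ to 3′, with TATAAA in capitals (TTTATA is the same word on the other strand). Krtap6-5 had the largest mean increase of any gene, Krtap21-1 and Krtap4-1 belong to other families of the same 2 clusters, and Krt34 and Krt33b are acidic hair keratins. The windows are chr16:89047900-89048149 for Krtap6-5, chr16:89403775-89404024 for Krtap21-1, chr11:99628240-99628489 for Krtap4-1, chr11:100041555-100041804 for Krt34 and chr11:100029869-100030118 for Krt33b.
Krtap6-5: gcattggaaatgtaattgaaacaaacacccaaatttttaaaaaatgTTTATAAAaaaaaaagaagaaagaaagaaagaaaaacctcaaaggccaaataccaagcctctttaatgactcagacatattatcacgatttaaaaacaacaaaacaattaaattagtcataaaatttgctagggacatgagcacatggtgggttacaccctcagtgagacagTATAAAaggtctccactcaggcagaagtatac
Krtap21-1: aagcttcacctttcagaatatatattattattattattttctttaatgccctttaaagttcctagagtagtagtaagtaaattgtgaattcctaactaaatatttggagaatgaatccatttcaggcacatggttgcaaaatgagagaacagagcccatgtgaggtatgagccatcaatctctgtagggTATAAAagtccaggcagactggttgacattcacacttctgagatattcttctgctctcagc
Krtap4-1: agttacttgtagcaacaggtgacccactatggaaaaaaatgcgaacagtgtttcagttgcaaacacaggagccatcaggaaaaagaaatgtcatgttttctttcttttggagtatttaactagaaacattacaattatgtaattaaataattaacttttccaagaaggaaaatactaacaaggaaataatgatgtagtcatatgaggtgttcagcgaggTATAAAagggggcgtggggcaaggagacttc
Krt34: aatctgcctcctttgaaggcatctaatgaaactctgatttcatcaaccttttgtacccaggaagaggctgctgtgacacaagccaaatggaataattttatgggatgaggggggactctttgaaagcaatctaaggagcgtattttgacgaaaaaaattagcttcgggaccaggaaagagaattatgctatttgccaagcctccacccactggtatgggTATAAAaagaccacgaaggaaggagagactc
Krt33b: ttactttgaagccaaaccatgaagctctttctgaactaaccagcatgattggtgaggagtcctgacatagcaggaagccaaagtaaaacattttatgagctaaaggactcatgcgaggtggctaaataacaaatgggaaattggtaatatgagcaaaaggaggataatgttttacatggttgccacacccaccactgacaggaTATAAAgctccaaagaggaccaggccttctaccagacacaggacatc
The word TATAAA began 31 to 61 bases before the start in each of the 5, and Krtap6-5 also held an overlapping pair farther out, TTTATA at 204 and TATAAA at 202 bases before it. Over windows from 250 bases before to 50 after the start, on both strands, it was in 12 of 14 hair keratin promoters (85.7%) and 24 of 29 Krtap promoters (82.8%), while 1769 of 18109 promoters of all genes on the array (9.77%) held it. CTTTGAA, the word that LEF1 and TCF factors bind, was in 5 of the 14 (35.7%) and 6 of the 29 (20.7%), beside 4.1% of all promoters, and does not overlap with TATAAA. It was also in 4 of 32 collagen promoters (12.5%) and in 7.91% of the promoters of the 286 higher genes. Of the other words searched, CCAAT was in 9 of the 14 (64.3%) and 9 of the 29 (31.0%), beside 37.4% of all. TGANTCA, an AP-1 type site, was in 0 of the 14 and 5 of the 29 (17.2%), beside 6.38%. Of the 286 higher genes, 216 had promoters in the table, 253 in all. TATAAA was in 74 of these (29.2%), hair keratin and Krtap promoters included. Of the 85 lower genes, 63 had 83 promoters, of which 15 held it (18.1%). A gene with several starts counts more than once. A match is a description of the letters, and members of these families share ancestry.

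The keratin-associated proteins, which cross-link keratin filaments in the shaft, showed the widest gap. Krtap6-5, a member rich in glycine and tyrosine, had a log2 level of 9.44 in PSI and 10.20 in PSI-F on day 10, against 1.35 (PSI) and 6.28 (PSI-F) on day 7. Both day 10 grafts were high, the PSI graft of day 7 was at background and its PSI-F counterpart between, and the days did not overlap (mean difference 6.004 ± 0.71, adjusted p = 0.00259 by limma, 64.2-fold). Krtap19-5 had 7.71 in PSI and 8.16 in PSI-F on day 10, against 1.04 (PSI) and 3.80 (PSI-F) on day 7 (5.51 ± 0.42, adjusted p = 0.000263 by limma). Krtap22-2 was lower in level but tighter, at 5.17 in PSI and 6.13 in PSI-F on day 10, against 1.13 (PSI) and 1.96 (PSI-F) on day 7 (4.10 ± 0.17, adjusted p = 8.85e-06 by limma). No probe set had a smaller adjusted p, and Gm10229 and Gm11563 had the same. Krtap4-1, of a family with high sulphur content, had 7.08 in PSI and 9.10 in PSI-F on day 10, against 1.88 (PSI) and 4.88 (PSI-F) on day 7 (4.71 ± 0.23, adjusted p = 1.84e-05 by limma), so here PSI-F was above PSI on both days. In Krtap15 most of the gap lay in PSI: levels were 11.004 in PSI and 11.16 in PSI-F on day 10, against 1.95 (PSI) and 9.60 (PSI-F) on day 7 (5.31 ± 1.25, adjusted p = 0.0493 by limma). Of the 31 genes measured in the Krtap list, 24 rose, 25 were at least 2-fold higher in both graft types, and 31 had a positive difference in both (median 4.13 in PSI and 3.32 in PSI-F). Krtap8-1, at 10.55 in PSI and 10.75 in PSI-F on day 10, against 2.56 (PSI) and 9.39 (PSI-F) on day 7, passed the fold in both graft types but missed the limma threshold (adjusted p = 0.0504). With all 8 grafts in the limma fit, 4 of the 24 calls remained, and 16 after loess.

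Hair keratins, the filament proteins of shaft and cuticle, moved together. All 19 that were measured rose, 16 of them by 2-fold or more in both graft types, with a median difference of 3.20 in PSI and 1.82 in PSI-F. Krt86, a basic hair keratin, had a level of 8.77 in PSI and 9.39 in PSI-F on day 10, against 2.14 (PSI) and 6.68 (PSI-F) on day 7 (4.67 ± 0.67, adjusted p = 0.00612 by limma). Krt34 had 9.84 in PSI and 10.07 in PSI-F on day 10, against 2.99 (PSI) and 8.06 (PSI-F) on day 7 (4.43 ± 0.82, adjusted p = 0.0185 by limma), and Krt33b had 8.83 in PSI and 9.23 in PSI-F on day 10, against 4.11 (PSI) and 6.46 (PSI-F) on day 7 (3.74 ± 0.36, adjusted p = 0.000963 by limma). In each of these 3 keratins both day 10 levels exceeded both day 7 levels, and the PSI graft of day 7 was the lowest of the 4. Over the hair keratin and Krtap lists together, 36 of 50 genes differed more in PSI than in PSI-F. Below a log2 level of 4, close to the background of an array, were 6 of the 50 in PSI and 3 in PSI-F on day 10, against 32 in PSI and 14 in PSI-F on day 7. The fit on all 8 grafts with limma called 0 of the 19 hair keratins, 6 of them at an unadjusted p under 0.05, and after cyclic loess 8 of the 19 were called. Median hair keratin levels over days 1, 3, 7 and 10 were 5.23, 8.47, 5.20 and 9.62 in PSI and 4.0, 2.99, 7.71 and 9.57 in PSI-F, with 10.14 in Control and 9.15 in Diabetic, so that the level was also high in the PSI graft of day 3.

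**Figure D2:**
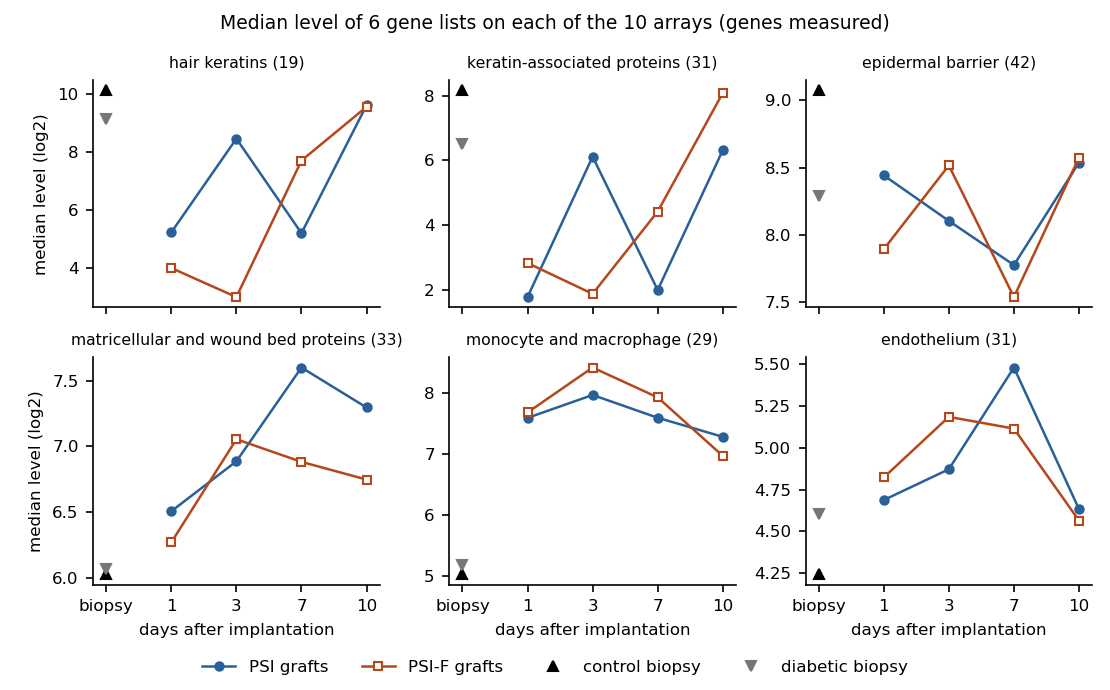
Levels over time: the vertical axis is the median log2 level across the members of a list, in 6 panels for 6 lists, and the horizontal axis gives days 1, 3, 7 and 10 after implantation, with circles for PSI, squares for PSI-F and triangles for the biopsies. Hair keratins and keratin-associated proteins stand high on day 10 in both graft types but also in the PSI graft of day 3, while macrophage and endothelial genes are at their lowest graft level on day 10.

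The regulators and inner root sheath genes of the follicle also rose, 28 of 45 with none falling and 19 at least 2-fold higher in both graft types (median difference 1.06 in PSI and 1.365 in PSI-F). Foxn1, the transcription factor whose loss gives the nude phenotype and whose transcript can still be read, had 6.68 in PSI and 6.63 in PSI-F on day 10, against 3.56 (PSI) and 4.88 (PSI-F) on day 7, and 7.18 in Control and 6.84 in Diabetic. Both day 10 grafts lay close together and above both day 7 grafts (2.44 ± 0.28, adjusted p = 0.0024 by limma). Hoxc13, a homeobox factor that acts upstream of hair keratins, had 6.40 in PSI and 6.43 in PSI-F on day 10, against 5.04 (PSI) and 5.21 (PSI-F) on day 7 (1.29 ± 0.17, adjusted p = 0.0043 by limma). Lef1, a Wnt effector of the bulb, and Shh, the ligand of the hair matrix, rose by 1.03 and 0.98 (adjusted p = 0.0108 and 0.0425 by limma). Msx2, a homeobox factor of the matrix, rose by 1.94. In the inner root sheath, Tchhl1, a gene of the trichohyalin-like family, had 7.42 in PSI and 7.06 in PSI-F on day 10, against 1.41 (PSI) and 4.21 (PSI-F) on day 7 (4.43 ± 0.55, adjusted p = 0.00331 by limma). The sheath keratins followed: Krt25 had 11.17 in PSI and 11.55 in PSI-F on day 10, against 9.03 (PSI) and 9.94 (PSI-F) on day 7, and Krt75, of the companion layer, had 7.77 in PSI and 8.24 in PSI-F on day 10, against 4.59 (PSI) and 5.87 (PSI-F) on day 7. Padi1 and Padi3, enzymes that convert arginine to citrulline in sheath and shaft proteins, rose by 2.82 and 2.67, and Gprc5d, a receptor-like protein of the hair-forming zone, by 3.62. Foxn1, Hoxc13, Shh, Msx2, Krt25 and Krt75 were chosen after their values were seen. Of these 28 calls 4 remained with all 8 grafts in the limma fit, and 15 after loess.

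Genes of pigment synthesis moved with the follicle genes. Of 20 melanocyte genes, 8 rose, none fell and 4 were at least 2-fold higher in both graft types (median 0.53 in PSI and 0.71 in PSI-F). Backgrounds over all genes were 3.86% that rose and 1.57% that much higher. Mlana, a melanosome protein, had 5.48 in PSI and 5.51 in PSI-F on day 10, against 3.57 (PSI) and 3.54 (PSI-F) on day 7 (1.94 ± 0.17, adjusted p = 0.000524 by limma). Tyr, the enzyme that starts melanin synthesis, had 4.49 in PSI and 4.56 in PSI-F on day 10, against 2.62 (PSI) and 2.68 (PSI-F) on day 7 (1.88 ± 0.17, adjusted p = 0.000636 by limma). In both genes the days were about as far apart in PSI as in PSI-F. Dct, Pmel and Tyrp1, of later melanin steps and the melanosome fibril, rose by 1.76, 1.63 and 1.44 (adjusted p = 0.0074, 0.00431 and 0.0108 by limma). The lineage factors Mitf and Sox10 differed by 0.42 and 0.12 and were not called (adjusted p = 0.25 and 0.827 by limma). Of the 8 calls 1 remained with all 8 grafts, and 2 after loess.

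**Figure D3:**
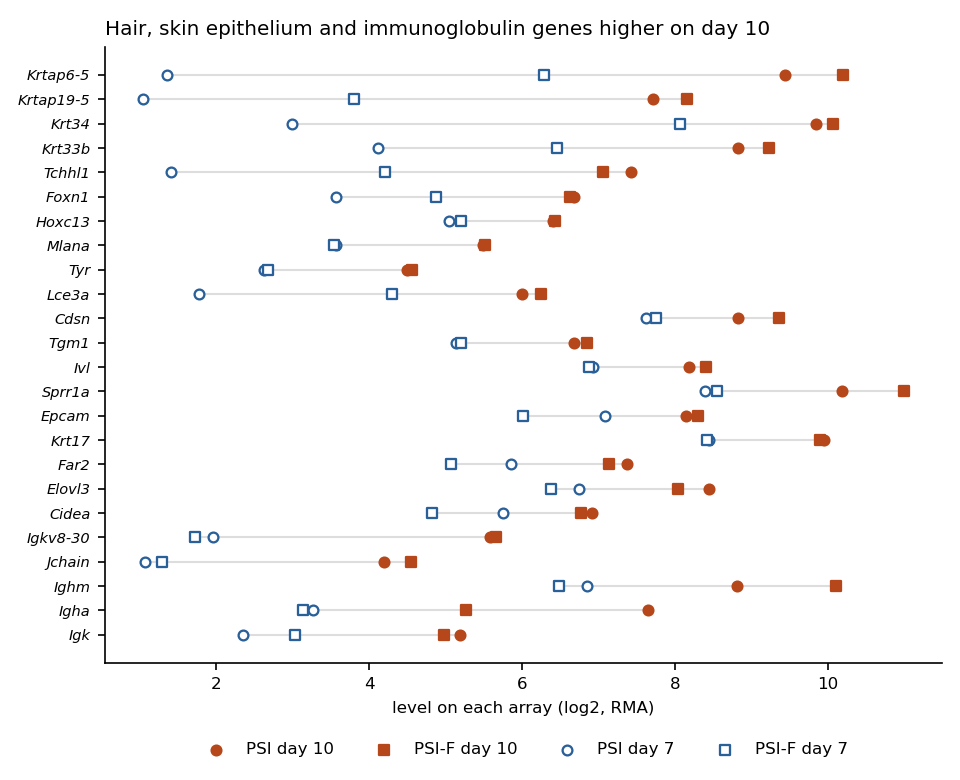
Log2 level of 24 genes that were higher on day 10, on each of the 4 arrays, with filled symbols for day 10, open symbols for day 7, circles for PSI and squares for PSI-F. In each gene both filled symbols lie to the right of both open symbols, and the open circle of PSI is far to the left in Krtap6-5, Krt34 and Tchhl1.

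Epidermal genes rose by smaller amounts. Over 5 lists (barrier, basal keratinocyte, wound-activated keratins, sebaceous lipid synthesis and the pigment list) of 121 distinct genes, 45 rose, 1 fell and 21 were at least 2-fold higher in both graft types. The shares over all genes were 3.86%, 2.11% and 1.57%. Of 42 barrier genes 17 rose, with medians of 0.51 in PSI and 0.75 in PSI-F. Tgm1, the transglutaminase that seals the cornified envelope, had 6.68 in PSI and 6.84 in PSI-F on day 10, against 5.13 (PSI) and 5.20 (PSI-F) on day 7 (1.60 ± 0.17, adjusted p = 0.00155 by limma). Tgm1 was still called with all 8 grafts (adjusted p = 0.0202), as were 10 of the 17. Cdsn, which holds corneocytes together, rose by 1.41, Ivl (involucrin, an envelope precursor) by 1.39 and Cldn1, a tight junction protein, by 1.45. Lce3a, a late envelope protein, had 5.996 in PSI and 6.25 in PSI-F on day 10, against 1.77 (PSI) and 4.30 (PSI-F) on day 7 (3.09 ± 0.41, adjusted p = 0.00465 by limma). Of 20 basal keratinocyte and follicle epithelium genes, 10 rose and none fell. Krt17, a keratin of appendages and activated epidermis, had 9.94 in PSI and 9.89 in PSI-F on day 10, against 8.44 (PSI) and 8.42 (PSI-F) on day 7 (1.49 ± 0.17, adjusted p = 0.0021 by limma), and Epcam, an adhesion molecule of follicle epithelium, rose by 1.68. Krt5, the basal keratin, rose by 0.75 (adjusted p = 0.0413 by limma), while its partner Krt14 differed by 0.46 and was not called (adjusted p = 0.208 by limma). After loess 8 of the 17 barrier calls and 1 of the 10 basal calls remained.

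Of 21 genes induced by skin injury 1 rose and 1 fell, with 6 higher and 7 lower at an unadjusted p under 0.05 in limma. The median of their mean differences was -0.07, and -0.68 over the 13 with a mean level of at least 4. Sprr1a, an envelope protein induced by wounding, had 10.18 in PSI and 10.99 in PSI-F on day 10, against 8.40 (PSI) and 8.55 (PSI-F) on day 7 (2.11 ± 0.20, adjusted p = 0.00086 by limma). Krt6b, a keratin of migrating epidermis, went the other way, with 7.78 in PSI and 6.13 in PSI-F on day 10, against 8.97 (PSI) and 9.69 (PSI-F) on day 7 (-2.38 ± 0.42, adjusted p = 0.0158 by limma, 5.2-fold lower). Its call was lost with all 8 grafts (adjusted p = 0.404). Krt6a, its close relative, had 10.22 in PSI and 9.82 in PSI-F on day 10, against 8.68 (PSI) and 9.76 (PSI-F) on day 7 and was not called (adjusted p = 0.208 by limma). Sequence shared between such keratins can bind the same probes. The epidermal growth factors Tgfa and Epgn rose by 1.44 and 1.84, and the gap junction genes Gjb2 and Gjb6 by 1.55 and 1.69. Grhl1 and Zfp750, factors of keratinocyte differentiation, rose by 1.38 and 1.27. These 6 genes were chosen after their values were seen.

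Of 18 genes of sebaceous lipid synthesis, 9 rose, none fell and 6 were at least 2-fold higher in both graft types, with medians of 0.66 in PSI and 1.38 in PSI-F. Far2, which makes the fatty alcohols of wax esters, had 7.37 in PSI and 7.13 in PSI-F on day 10, against 5.85 (PSI) and 5.07 (PSI-F) on day 7 (1.79 ± 0.19, adjusted p = 0.00165 by limma). Elovl3, a fatty acid elongase of skin, had 8.45 in PSI and 8.03 in PSI-F on day 10, against 6.74 (PSI) and 6.38 (PSI-F) on day 7 (1.68 ± 0.17, adjusted p = 0.00112 by limma). Cidea and Elovl4 rose by 1.56 and 1.47. The cholesterol synthesis enzymes Sqle, Fdps and Msmo1, chosen after their values were seen, rose by 1.40, 1.27 and 1.37. Fasn, the fatty acid synthase that adipose tissue also uses, differed by 0.65 and was not called (adjusted p = 0.329 by limma). Of 23 adipocyte genes 1 rose, Acly, and their medians had opposite signs, -0.26 in PSI and 0.58 in PSI-F. Of the 9 sebaceous calls, 4 remained with all 8 grafts and 6 after loess.

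Immunoglobulin genes formed a separate group of higher genes. Igkv8-30, a kappa light chain variable segment, had 5.58 in PSI and 5.65 in PSI-F on day 10, against 1.95 (PSI) and 1.73 (PSI-F) on day 7, and 1.08 in Control and 1.10 in Diabetic. Both day 7 grafts were at background, and the day 10 pair was close together (3.78 ± 0.17, adjusted p = 1.41e-05 by limma, 13.7-fold). Jchain, the protein that links IgM and IgA polymers, had 4.19 in PSI and 4.55 in PSI-F on day 10, against 1.07 (PSI) and 1.28 (PSI-F) on day 7 (3.19 ± 0.17, adjusted p = 2.69e-05 by limma). Ighm, the heavy chain of IgM, had 8.81 in PSI and 10.10 in PSI-F on day 10, against 6.85 (PSI) and 6.48 (PSI-F) on day 7 (2.79 ± 0.32, adjusted p = 0.0023 by limma), higher in PSI-F. Igha, the heavy chain of IgA, had 7.65 in PSI and 5.26 in PSI-F on day 10, against 3.27 (PSI) and 3.13 (PSI-F) on day 7 (3.25 ± 0.41, adjusted p = 0.0034 by limma), higher in PSI. Igk, the kappa light chain, had 5.19 in PSI and 4.98 in PSI-F on day 10, against 2.35 (PSI) and 3.03 (PSI-F) on day 7 (2.39 ± 0.22, adjusted p = 0.000812 by limma), and Mzb1, a chaperone of antibody-secreting cells, rose by 1.29. Of 15 genes of B and plasma cells 5 rose and none fell, 4 of the 5 also with all 8 grafts and 3 after loess. In the limma fit on all 8 grafts the adjusted p was 0.00136 for Jchain and 0.00122 for Igkv8-30, which is outside the list. The 5 include Sdc1 and Blnk, and Sdc1, a syndecan of plasma cells, is also abundant in keratinocytes. Blnk was already high in the biopsies, at 7.37 in Control and 7.21 in Diabetic, unlike the B cell surface gene Cd79a, at 2.07 and 1.96. The B cell surface genes Cd79a and Ms4a1 stayed near background, at 1.96 in PSI and 2.13 in PSI-F on day 10, against 1.92 (PSI) and 2.34 (PSI-F) on day 7 for Cd79a and 1.98 in PSI and 1.43 in PSI-F on day 10, against 1.58 (PSI) and 2.12 (PSI-F) on day 7 for Ms4a1, and were not called (adjusted p = 0.872 and 0.856 by limma). Igha, Igk, Mzb1, Cd79a and Ms4a1 were chosen after their values were seen, and immunoglobulin probe sets can bind several related segments.

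Genes of the wound matrix were lower on day 10. Of 142 distinct genes in 5 lists of collagens, collagen processing, matricellular proteins, matrix proteases and myofibroblasts, 38 fell, 2 rose and 15 were at least 2-fold lower in both graft types, beside backgrounds of 2.11% and 0.467%. Tnn, tenascin N, a matrix glycoprotein, had 3.54 in PSI and 3.91 in PSI-F on day 10, against 6.06 (PSI) and 6.44 (PSI-F) on day 7, and 2.55 in Control and 2.69 in Diabetic. The days were as far apart in PSI as in PSI-F (-2.52 ± 0.17, adjusted p = 0.000127 by limma), and the call held with all 8 grafts (adjusted p = 0.00303). Tnc, tenascin C, which marks granulation tissue, had 7.30 in PSI and 6.92 in PSI-F on day 10, against 8.85 (PSI) and 8.86 (PSI-F) on day 7 (-1.75 ± 0.18, adjusted p = 0.00129 by limma). Thbs2, a matricellular protein that limits vessel growth, had 7.83 in PSI and 7.22 in PSI-F on day 10, against 9.29 (PSI) and 8.79 (PSI-F) on day 7 (-1.51 ± 0.17, adjusted p = 0.002 by limma). Cthrc1, secreted by activated fibroblasts, had 7.57 in PSI and 7.37 in PSI-F on day 10, against 9.07 (PSI) and 8.75 (PSI-F) on day 7, and Ccn4, a Wnt-induced matricellular protein, fell by 1.58. Of 33 matricellular genes 10 fell and none rose (median -0.55 in PSI and -0.58 in PSI-F). Of the 10, 6 remained called with all 8 grafts, and 7 after loess.

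Of 36 collagen genes 9 fell, none rose and 5 were at least 2-fold lower in both graft types, with medians of -0.46 in PSI and -0.32 in PSI-F. Col12a1, a collagen that decorates the surface of fibrils, had 6.68 in PSI and 6.10 in PSI-F on day 10, against 8.33 (PSI) and 8.06 (PSI-F) on day 7 (-1.81 ± 0.17, adjusted p = 0.000963 by limma). Col11a1, which nucleates fibrils, had 3.76 in PSI and 3.08 in PSI-F on day 10, against 5.58 (PSI) and 5.01 (PSI-F) on day 7 (-1.88 ± 0.17, adjusted p = 0.000658 by limma). Col5a1, which sets fibril diameter, had 8.43 in PSI and 8.27 in PSI-F on day 10, against 9.66 (PSI) and 9.68 (PSI-F) on day 7, and the 4 levels fell into 2 tight pairs (-1.32 ± 0.17, adjusted p = 0.00393 by limma). Col6a3 and Col8a1 fell by 1.14 and 1.52. Of these 9 calls 8 held with all 8 grafts, and 7 after loess. Of 20 genes of collagen processing 7 fell and 1, Pcolce2, rose by 1.09. Among the 7 were Loxl3 (-1.45), Plod2 (-1.19) and Lox (-0.79), which cross-link collagen, and P4ha2 (-0.85), which hydroxylates its prolines. Of the 7, 2 remained with all 8 grafts and 1 after loess.

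Of 31 matrix proteases and inhibitors 8 fell and 1 rose, with medians of -0.26 in PSI and -0.69 in PSI-F. Adam12, a membrane protease of activated fibroblasts and regenerating muscle, had 5.64 in PSI and 5.13 in PSI-F on day 10, against 7.52 (PSI) and 6.85 (PSI-F) on day 7 (-1.80 ± 0.17, adjusted p = 0.000852 by limma). Adamts4, which cleaves aggrecan and versican, had 4.32 in PSI and 3.31 in PSI-F on day 10, against 5.81 (PSI) and 5.16 (PSI-F) on day 7 (-1.67 ± 0.18, adjusted p = 0.00166 by limma). Timp1, an inhibitor of metalloproteinases, had 6.16 in PSI and 5.09 in PSI-F on day 10, against 7.21 (PSI) and 7.78 (PSI-F) on day 7 (-1.87 ± 0.32, adjusted p = 0.0128 by limma), with most of the fall in PSI-F. Mmp13, a collagenase, had 5.05 in PSI and 2.79 in PSI-F on day 10, against 5.12 (PSI) and 5.51 (PSI-F) on day 7 and was not called (adjusted p = 0.163 by limma). The gene that rose was Serpinb2, an inhibitor of plasminogen activators that keratinocytes also make (1.21). Of 22 genes of myofibroblasts and smooth muscle 4 fell: Actg2 (-1.24), Des (-0.84), Pdgfrb (-0.84) and Acta2 (-0.73), the actin of contractile fibroblasts. With all 8 grafts 3 of the 8 protease calls and 1 of the 4 myofibroblast calls remained, and after loess 3 and 0, while 8 myofibroblast genes were at an unadjusted p under 0.05 in the limma fit on 4 arrays.

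**Figure D4:**
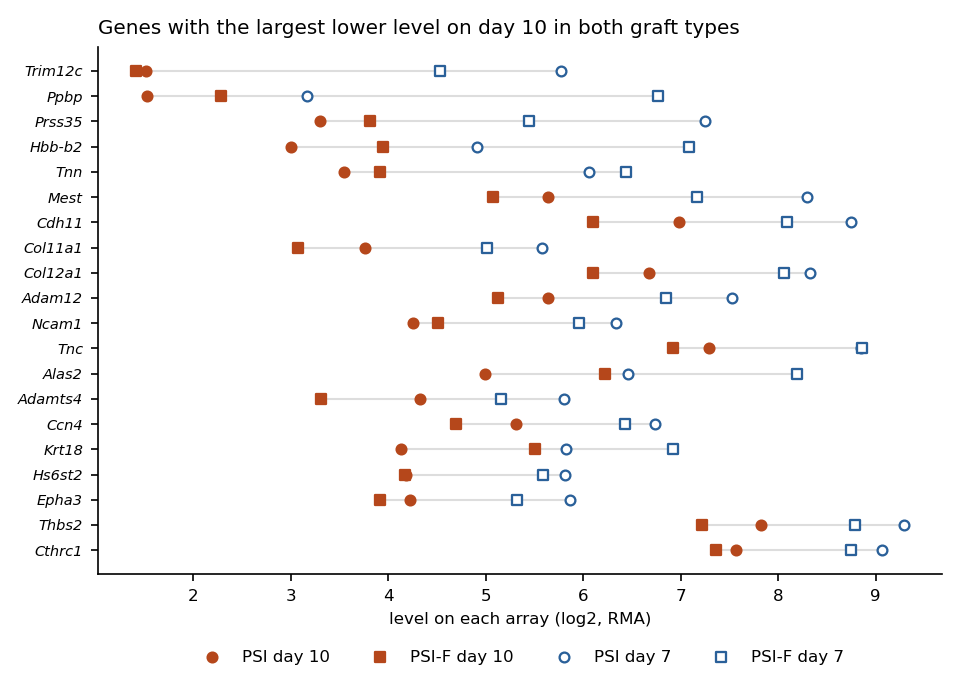
Log2 level of the 20 genes with the largest fall shared by both graft types, on each of the 4 arrays, with filled symbols for day 10, open symbols for day 7, circles for PSI and squares for PSI-F. In each gene both filled symbols lie to the left of both open symbols, and Trim12c falls to the background of the array.

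Other genes with large shared falls belonged to no list. Trim12c, a member of a family of antiviral E3 ligases, had the largest mean difference, with 1.52 in PSI and 1.41 in PSI-F on day 10, against 5.77 (PSI) and 4.54 (PSI-F) on day 7 (-3.69 ± 0.25, adjusted p = 0.000139 by limma), and 5 of the 10 arrays were below 2.1, so it was near background on some arrays and well above it on others. Mest, an imprinted gene of mesoderm and of growing tissue, had 5.64 in PSI and 5.07 in PSI-F on day 10, against 8.30 (PSI) and 7.17 (PSI-F) on day 7 (-2.38 ± 0.19, adjusted p = 0.000353 by limma). Prss35, a secreted protease-like protein, had 3.31 in PSI and 3.81 in PSI-F on day 10, against 7.25 (PSI) and 5.44 (PSI-F) on day 7 (-2.79 ± 0.42, adjusted p = 0.00746 by limma). Cdh11, a cadherin of mesenchymal cells, had 6.98 in PSI and 6.10 in PSI-F on day 10, against 8.75 (PSI) and 8.09 (PSI-F) on day 7 (-1.88 ± 0.17, adjusted p = 0.000717 by limma). Cdh2, N-cadherin, chosen after its values were seen, fell by 1.87. Among the remaining leading genes were Epha3, an ephrin receptor of mesenchyme (-1.52), Hs6st2, which sulphates heparan chains (-1.52), and Krt18, a keratin of simple epithelia (-1.55). Mest, Hs6st2 and Krt18 stayed called with all 8 grafts, while Trim12c, Prss35, Cdh11 and Epha3 did not (adjusted p = 0.0716, 0.0551, 0.119 and 0.0626).

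Vessel genes were lower as well: over 61 genes of endothelium and of angiogenic factors and receptors, 17 fell, none rose and 1 was at least 2-fold lower in both graft types. Backgrounds over all genes were 2.11% that fell and 0.467% that much lower. Of 31 endothelial genes 11 fell, with medians of -0.68 in PSI and -0.46 in PSI-F. Tie1, a receptor kinase of endothelium, had 4.61 in PSI and 4.92 in PSI-F on day 10, against 5.89 (PSI) and 5.85 (PSI-F) on day 7 (-1.10 ± 0.18, adjusted p = 0.0102 by limma). Kdr, the main VEGF receptor, had 4.13 in PSI and 4.17 in PSI-F on day 10, against 5.31 (PSI) and 4.98 (PSI-F) on day 7 (-0.99 ± 0.18, adjusted p = 0.0156 by limma). Aplnr, the apelin receptor of sprouting vessels, fell by 1.18, Nos3, the endothelial nitric oxide synthase, by 1.01 and Cdh5, the cadherin of endothelial junctions, by 0.91. Of the growth factors, Angpt1, the Tie2 ligand, and Pdgfc both fell by 1.00 (adjusted p = 0.014 and 0.0168 by limma), whereas Vegfa had 5.89 in PSI and 5.67 in PSI-F on day 10, against 6.21 (PSI) and 6.15 (PSI-F) on day 7 and was not called (adjusted p = 0.282 by limma). With all 8 grafts 3 of the 11 endothelial and 1 of the 6 angiogenic calls remained, and after loess 3 and 2.

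Among 211 distinct genes in 8 lists of macrophages (3 lists), neutrophils, chemokines, inflammatory cytokines, complement and the interferon response, 31 fell, 7 rose and 10 were at least 2-fold lower in both graft types. Over all genes 2.11% fell, 3.86% rose and 0.467% were that much lower, so the share that rose was no larger here. Macrophage genes accounted for 8 of the 31 falls, of 29 measured, with medians of -0.41 in PSI and -0.87 in PSI-F. Adgre1, the classical surface antigen of mouse macrophages, had 6.16 in PSI and 5.85 in PSI-F on day 10, against 6.96 (PSI) and 7.35 (PSI-F) on day 7 (-1.15 ± 0.20, adjusted p = 0.0149 by limma). Cd14, a receptor for bacterial lipopolysaccharide, had 5.16 in PSI and 5.03 in PSI-F on day 10, against 6.47 (PSI) and 6.07 (PSI-F) on day 7 (-1.17 ± 0.17, adjusted p = 0.007 by limma). Msr1, a scavenger receptor, fell by 1.61. In the whole list 25 of 29 genes were lower in both graft types, and median levels were 7.28 in PSI and 6.97 in PSI-F on day 10, against 7.59 and 7.93 on day 7, with 5.03 in Control and 5.18 in Diabetic. The fit on all 8 grafts kept 1 of the 8 calls, and loess 1. Of 22 genes of phagocyte lysosomes and lipid handling 1 fell and 2 rose, with medians of -0.17 in PSI and -0.07 in PSI-F. Trem2, a lipid-sensing receptor of macrophages, fell by 1.21, whereas Gpnmb, a glycoprotein that melanocytes also make, and Cd9, a tetraspanin, rose by 0.92 and 0.97 (adjusted p = 0.0249 and 0.0447 by limma). Of 21 genes of alternatively activated macrophages 3 fell, among them the growth factor Igf1 (-1.14), and 1 rose, Retnla (0.84). None of these 4 calls remained with all 8 grafts in limma, where 4 genes were lower and 1 higher at an unadjusted p under 0.05. Of 39 interferon response genes 6 fell, none rose and 29 were lower in both graft types, with a smaller median in PSI (-0.22) than in PSI-F (-0.82). Rsad2, the antiviral protein viperin, had 5.17 in PSI and 6.13 in PSI-F on day 10, against 6.36 (PSI) and 7.70 (PSI-F) on day 7 (-1.38 ± 0.18, adjusted p = 0.00403 by limma). None of the 6 calls remained with all 8 grafts in limma, where 6 genes were below an unadjusted p of 0.05, and 2 remained after loess.

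Of 22 neutrophil genes 4 fell and 1 rose. Clec4d, a receptor of myeloid cells, had 4.55 in PSI and 3.96 in PSI-F on day 10, against 5.57 (PSI) and 6.22 (PSI-F) on day 7 (-1.64 ± 0.26, adjusted p = 0.0103 by limma). The gene that rose was Padi4, which citrullinates histones in neutrophils and lies beside the hair enzymes Padi1 and Padi3 on chromosome 4, at 5.80 in PSI and 5.81 in PSI-F on day 10, against 2.84 (PSI) and 4.09 (PSI-F) on day 7 (2.34 ± 0.26, adjusted p = 0.00212 by limma). No neutrophil call remained with all 8 grafts in limma, where 3 genes were lower and 1 higher at an unadjusted p under 0.05. Of 32 chemokines 5 fell and 2 rose (Ccl1, and Cxcl14, which epithelium makes), with medians of opposite sign, 0.18 in PSI and -0.75 in PSI-F. Cxcl5, which draws neutrophils, had 3.64 in PSI and 1.73 in PSI-F on day 10, against 4.90 (PSI) and 5.25 (PSI-F) on day 7 (-2.39 ± 0.41, adjusted p = 0.0131 by limma), and Cxcl2, of the same family, fell by 1.80. Of the 7 chemokine calls, that of Cxcl14 alone remained with all 8 grafts, where limma put 6 genes lower and 2 higher at an unadjusted p under 0.05, and 0 remained after loess. None of the 28 inflammatory cytokine genes was called by limma, 1 higher and 3 lower at an unadjusted p under 0.05. Of 26 T and NK cell genes 1 rose, Gzmc (1.29), a granzyme of NK cells, a cell type that nude mice keep. That share was no larger than the 3.86% over all genes. Mast cell genes were higher in both graft types in 11 of 15 and lower in 2, beside 5422 and 6238 of all 18193 genes. Their median was 0.12 in PSI and 0.92 in PSI-F. By limma 9 of the 15 were higher at an unadjusted p under 0.05, beside 1939 of all genes. Of the 15, 1 was called, Rab27b, beside the 3.86% of all genes that rose. Complement and acute phase genes fell in 4 of 23, among them Saa3 (-1.70), an acute phase protein, and Clu (-1.49), a secreted chaperone, and 1 rose, F3 (0.77), the tissue factor of clotting. Of these 5 calls that of Clu remained with all 8 grafts and 0 after loess.

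Red cell and platelet genes fell in 3 of 16, and 1 rose, Car2 (1.10, adjusted p = 0.03 by limma), a carbonic anhydrase that red cells and other cells make. Of all genes 2.11% fell and 3.86% rose. Hbb-b2, an adult beta-globin, had 3.01 in PSI and 3.95 in PSI-F on day 10, against 4.91 (PSI) and 7.09 (PSI-F) on day 7 (-2.52 ± 0.26, adjusted p = 0.00154 by limma), and Alas2, the heme synthesis enzyme of erythroid cells, had 4.996 in PSI and 6.22 in PSI-F on day 10, against 6.46 (PSI) and 8.19 (PSI-F) on day 7 (-1.72 ± 0.19, adjusted p = 0.0018 by limma). Ppbp, a platelet chemokine, had 1.52 in PSI and 2.28 in PSI-F on day 10, against 3.16 (PSI) and 6.76 (PSI-F) on day 7 (-3.06 ± 0.50, adjusted p = 0.0108 by limma). In each of these 3 the PSI-F graft of day 7 was the highest of the 4. None of the 3 was called with all 8 grafts (adjusted p = 0.0809, 0.3 and 0.162 by limma), nor was Car2 (adjusted p = 0.0753).

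Genes of regenerating muscle fell in 7 of 24, with none rising and 3 at least 2-fold lower in both graft types (median -0.79 in PSI and -0.26 in PSI-F). Backgrounds were 2.11% that fell and 0.467% that much lower. Ncam1, an adhesion molecule of young fibres, had 4.25 in PSI and 4.51 in PSI-F on day 10, against 6.33 (PSI) and 5.95 (PSI-F) on day 7 (-1.76 ± 0.20, adjusted p = 0.00207 by limma). Chrna1, the acetylcholine receptor subunit, had 5.29 in PSI and 4.42 in PSI-F on day 10, against 6.46 (PSI) and 6.85 (PSI-F) on day 7 (-1.80 ± 0.27, adjusted p = 0.00719 by limma). Tnnt2, the cardiac troponin T that developing muscle also makes, fell by 1.70. Myh3, embryonic myosin, had 2.93 in PSI and 2.82 in PSI-F on day 10, against 6.89 (PSI) and 3.41 (PSI-F) on day 7, high on 1 array, and was not called (adjusted p = 0.0662 by limma). Of 38 genes of adult muscle, 31 were lower in both graft types, beside 6238 of all 18193 genes. None of the 38 was called by limma, 16 being lower at an unadjusted p under 0.05, beside 1716 of all genes. Median levels of the adult muscle genes were 10.33 in PSI and 10.46 in PSI-F on day 10, against 10.81 and 10.67 on day 7. Of the 7 regeneration calls, 2 remained with all 8 grafts and 2 after loess.

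Of 27 islet endocrine genes 7 fell, beside a background of 2.11%, and none rose (median -0.31 in PSI and -0.39 in PSI-F). Ins2, with the levels given at the start, had a mean difference of -1.50 ± 0.36 and was not called (adjusted p = 0.051 by limma). The difference was larger in PSI. Chga, a protein of secretory granules, had 3.51 in PSI and 3.32 in PSI-F on day 10, against 4.74 (PSI) and 3.95 (PSI-F) on day 7 (-0.93 ± 0.19, adjusted p = 0.0312 by limma), and Iapp, the amyloid peptide secreted with insulin, had 3.48 in PSI and 3.63 in PSI-F on day 10, against 4.72 (PSI) and 4.14 (PSI-F) on day 7 (-0.88 ± 0.20, adjusted p = 0.0486 by limma). The other calls were of genes at low levels, below 4 on each of the 4 arrays: Chgb, Neurod1, Isl1, Scg2 and Ppy. Chgb had 1.70 in PSI and 1.69 in PSI-F on day 10, against 3.06 (PSI) and 2.88 (PSI-F) on day 7. It had 1.45 in Control and 1.27 in Diabetic. Neurod1 had 3.28 in PSI and 3.16 in PSI-F on day 7, with 0.64 in Control and 1.09 in Diabetic. Isl1 was closer to the biopsies, with 2.73 in PSI-F on day 7 and 2.44 in Diabetic. Gcg and Sst, the glucagon and somatostatin genes, differed by -0.37 and -0.32 and were not called (adjusted p = 0.321 and 0.414 by limma). With all 8 grafts 4 of the 7 calls remained, and 1 after loess. The 4 were all genes below 4 on each of the 4 arrays. Chga and Iapp were no longer called with all 8 grafts (adjusted p = 0.107 and 0.185 by limma).

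Of 31 immediate early genes 7 rose, beside a background of 3.86%, none fell and 24 were higher in both graft types (median 0.56 in PSI and 0.27 in PSI-F). Egr2, Egr3, Junb and Dusp2, which respond to growth factors, rose by 1.23, 1.02, 1.28 and 1.32. Of the 7 calls 1 remained with all 8 grafts, and 2 after loess. Of 49 cell cycle genes 35 were higher in both graft types (median 0.16 in PSI and 0.54 in PSI-F), beside 5422 of all 18193 genes. None of the 49 was called by limma, and 17 were higher at an unadjusted p under 0.05, beside 1939 of all genes. Top2a, which untangles replicated DNA, had 6.89 in PSI and 6.91 in PSI-F on day 10, against 6.57 (PSI) and 5.92 (PSI-F) on day 7 (adjusted p = 0.122 by limma). Of 34 BMP and TGF-beta genes 5 rose and 2 fell, with Bambi, a decoy receptor of the pathway, at 7.51 in PSI and 7.52 in PSI-F on day 10, against 5.65 (PSI) and 6.17 (PSI-F) on day 7 (1.60 ± 0.19, adjusted p = 0.00253 by limma). Of 46 Wnt genes 4 rose, among them Lef1 and the receptor Fzd5 (1.16), and 2 fell, among them the antagonist Sfrp2 (-1.07). Backgrounds were 3.86% that rose and 2.11% that fell. None of these 6 Wnt calls remained with all 8 grafts in limma, where 12 genes were higher and 3 lower at an unadjusted p under 0.05, and 1 remained after loess. Of the 7 BMP and TGF-beta calls 1 remained with all 8 grafts and 2 after loess. Of 23 metallothionein and Nrf2 target genes 1 rose and 1 fell, with 3 higher and 8 lower at an unadjusted p under 0.05 by limma. Mt4, the metallothionein of stratified epithelia, rose by 1.90, and Hmox1 fell by 1.04. Of 24 unfolded protein response genes 1 rose and none fell, with 8 higher and 10 lower in both graft types. The rise was of Chac1, a stress-induced enzyme that degrades glutathione, by 1.52. Neither Mt4 nor Chac1 was called with all 8 grafts. None of 36 respiratory chain, 17 ribosomal protein, 20 clock and 19 MHC class II genes was called by limma, with 3, 1, 1 and 3 at an unadjusted p under 0.05. These were smaller shares than over all 18193 genes, of which 1939 were higher and 1716 lower at that p. The ribosomal protein genes were nonetheless higher in both graft types in 16 of 17 and lower in 0, beside 5422 and 6238 of all genes. Their median was 0.17 in PSI and 0.26 in PSI-F. With all 8 grafts, limma put 4 of the 17 higher at an unadjusted p under 0.05, beside 1897 of all genes.

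**Figure D5:**
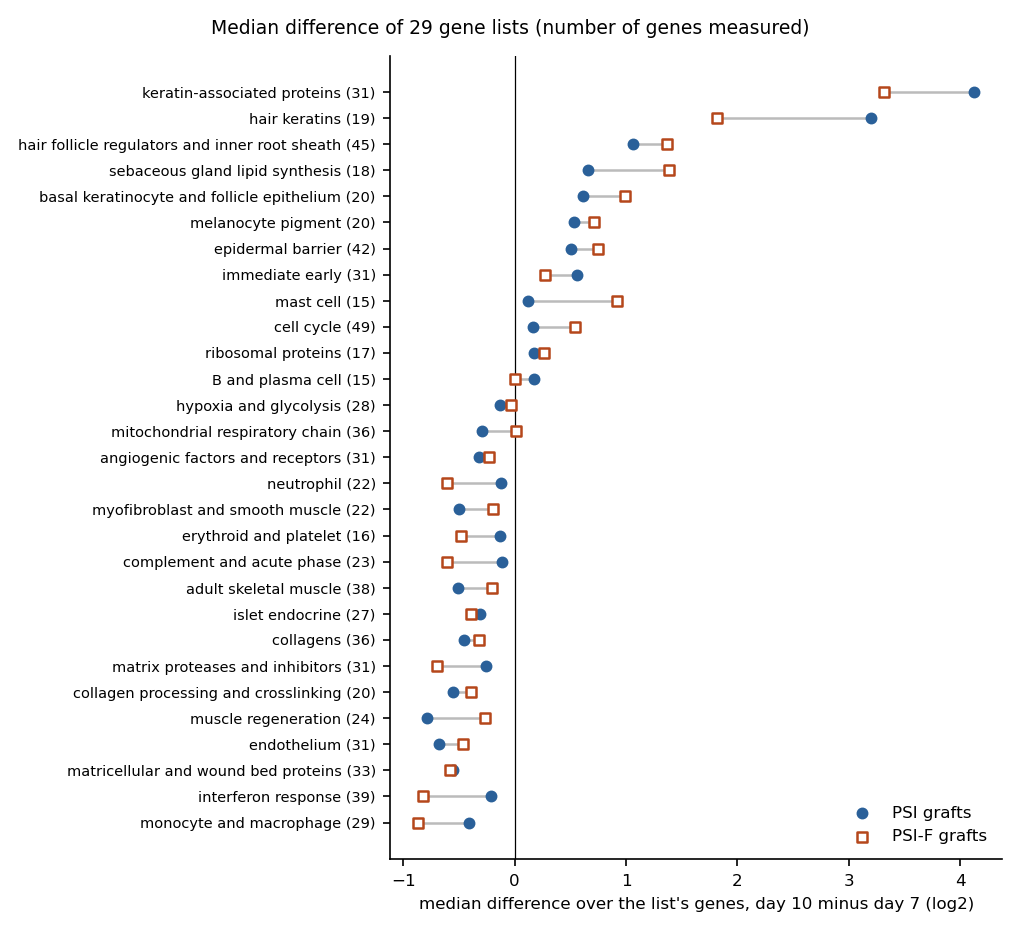
Median difference between day 10 and day 7 (log2, horizontal axis) over the genes of 29 lists, with circles for PSI and squares for PSI-F and the number of genes measured in parentheses. The 3 hair lists stand furthest to the right in PSI, and macrophage, interferon, matricellular, endothelial and muscle regeneration lists lie to the left of 0 in both graft types.

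Of 14 genes that the study discusses, 2 fell and none rose. Chil3, a chitinase-like protein of macrophages, had 1.46 in PSI and 2.146 in PSI-F on day 10, against 2.94 (PSI) and 3.41 (PSI-F) on day 7 (-1.37 ± 0.17, adjusted p = 0.00337 by limma), and Reg1, of the regenerating islet family, had 1.28 in PSI and 0.88 in PSI-F on day 10, against 2.22 (PSI) and 2.18 (PSI-F) on day 7 (-1.12 ± 0.18, adjusted p = 0.00956 by limma). Both lay near the background of the arrays, and neither was called with all 8 grafts (adjusted p = 0.353 and 0.537). Chil1, another chitinase-like protein, had 7.56 in PSI and 7.37 in PSI-F on day 10, against 7.14 (PSI) and 5.46 (PSI-F) on day 7 and was not called (adjusted p = 0.0657 by limma). Il1b and Il6, inflammatory cytokines, differed by -0.47 and -0.04, and the growth factors Pdgfa, Pdgfb, Vegfc and Angpt4 by -0.48, -0.19, -0.43 and -0.66, none of them called.

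Set against the biopsies, the 2 groups of genes differed in where they stood. Of the 286 higher genes, 231 had a day 10 mean within 2-fold of Control, against 11 with a day 7 mean that close. For Diabetic the numbers were 224 and 98. Within the graft series, day 7 was the lowest of the 4 days for 199 of the 286 in PSI and for 114 in PSI-F. The median level of these genes over days 1, 3, 7 and 10 was 4.84, 5.91, 4.44 and 6.39 in PSI and 4.33, 4.11, 4.87 and 6.69 in PSI-F, with 7.18 in Control and 6.25 in Diabetic. Of the 85 lower genes, 41 had a day 10 mean within 2-fold of Control, against 3 with a day 7 mean that close. Day 7 was the highest of the 4 days for 69 of the 85 in PSI, for 54 in PSI-F and for 51 in both. In 58 of the 85 both day 10 grafts still exceeded both biopsies, against 79 for the day 7 grafts. Their median level over days 1, 3, 7 and 10 was 4.90, 5.44, 6.28 and 4.91 in PSI and 4.65, 5.99, 6.15 and 4.60 in PSI-F, with 3.55 in Control and 3.57 in Diabetic. These counts share the day 7 and day 10 values that chose the genes, and only describe where they stood.

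The 2 graft types were closer to each other on day 10, with 133 genes at least 2-fold apart between PSI and PSI-F, against 324 on day 7. Among the 286 higher genes, 152 differed more in PSI and the others more in PSI-F, and 39 of the 85 lower genes did so in PSI. Genes measured by more than 1 probe set gave a check within the arrays. The 79 higher genes with another probe set had 123 such, of which 88 were higher in both graft types and 32 by 2-fold or more. The 44 lower genes had 74, of which 58 were lower in both and 14 by 2-fold or more. Array medians lay between 2.82 and 2.94. The poly-A control RNAs added before labelling were lower on day 10 in both graft types in 20 of 24 probe sets (medians -0.16 in PSI and -0.68 in PSI-F), and the hybridization controls in 16 of 18 (-0.19 and -0.35). The part of this shift in the gene differences was not tested.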

How the data were processed

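RNA of grafts and biopsies was hybridized to 10 Affymetrix mouse genome arrays, 1 per condition, and the RNA of best quality was used. The sources used here do not say whether an array held the RNA of 1 mouse. The values deposited by the authors are log2 levels from RMA, which corrects background, quantile normalizes and summarizes each probe set. R 2.15.0 and affy 1.36.0 are named in the submitters' processing notes. Quantile normalization gives all arrays like distributions, so a change shared by most genes would not be seen. Of 45101 probe sets, 64 array controls were left out. Of the rest, 34945 carried 1 gene symbol, 932 several and 9160 had none in the annotation used, with symbols updated through RefSeq (GRCm38.p6). Where a gene had several probe sets, the brightest on average over the 10 arrays was kept, which left 18193 genes.

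Day 10 minus day 7 was taken within PSI and within PSI-F, on the log2 scale. limma 3.58.1 in R 4.3.3 was fitted to the 4 arrays with day and graft type as terms, over 45037 probe sets, with Benjamini-Hochberg adjustment, and errors are its moderated standard errors. A gene rose or fell at an adjusted p under 0.05. On simulated data 36 of 50 probe sets changed by a log2 of 1 were recovered, and 50 of 50 at each of 2, 3 and 4. Beside these true calls stood 34 false calls, among 45037 probe sets. The simulated noise was independent between arrays and held no effect of mouse or graft type. It therefore cannot give the rate of false calls on the real arrays. Python 3.11.15 with numpy 2.4.6, pandas 2.3.3 and matplotlib 3.10.9 served for tables and plots.

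Of 1389 members written for 48 gene lists, 1260 were matched. The comparison, the members and the lists were chosen with earlier results of these data known. Named genes were, with a mean level of at least 4 on the higher day, the 20 with the largest shared difference in each direction, up to 5 members with the largest mean difference of each list, the 5 in each direction with the largest opposite differences, and the genes the paper names. Others given with full values were chosen after their values were seen. Promoters were searched for 4 words on both strands, from 250 bases before to 50 after the start.

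The alternatives were all 8 grafts in the fit, no graft type term, an intensity trend, cyclic loess (3 iterations) on the deposited values, a mean level of at least 4, array controls kept, each array left out, other fold thresholds, the mean of a gene's probe sets and each graft type alone. Histology, blood glucose and the other experiments were not analysed here.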

Additional observations from a re-analysis of the deposited data

Results flagged for a closer look

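A few genes and lists differed between day 10 and day 7 in opposite directions in the 2 graft types. With 1 array per condition, this difference between graft types was not tested, and values are log2 differences, day 10 minus day 7.

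The largest pair was Idi2, an isopentenyl diphosphate isomerase of muscle, with 6.88 in PSI and -5.80 in PSI-F. Its levels were 8.10 in PSI and 1.74 in PSI-F on day 10, against 1.22 in PSI and 7.54 in PSI-F on day 7, and 6 of the 10 arrays were below 2.1, so it was near background on some arrays and high on others. Actc1, the cardiac actin that regenerating muscle also makes, had -3.50 in PSI and 3.20 in PSI-F, and Mybph, a myosin-binding protein, had -1.27 and 1.10.

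Among these genes, 4 that interferon gamma induces were higher on day 10 in PSI and lower in PSI-F. The chemokines Cxcl11 and Cxcl9 had 1.40 and 0.98 in PSI, with -4.15 and -3.06 in PSI-F. The guanylate-binding protein Gbp8 had 1.04 in PSI and -2.25 in PSI-F, and the ubiquitin-like Ubd 1.20 and -2.20. The PSI-F graft of day 7 held the highest level of the 4 grafts in each of them. The whole chemokine list had a median of 0.18 in PSI and -0.75 in PSI-F, and T and NK cell genes 0.13 and -0.27.

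Genes of fat and of the clock went the other way. Rbp7, a retinol-binding protein of adipose endothelium, had -1.37 in PSI and 2.98 in PSI-F, Thrsp, a regulator of lipid synthesis, -1.30 and 1.05, and Per3, a clock gene, -1.66 and 1.06. List medians were -0.26 in PSI and 0.58 in PSI-F for adipocyte genes, -0.15 and 0.40 for clock genes, and -0.24 and 0.34 for glucocorticoid and FoxO targets. The exocrine pancreas list had the signs of the chemokine list, with 0.12 in PSI and -0.14 in PSI-F.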

How the results depend on the processing

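The limma fit called 1848 of 45037 probe sets, 1216 higher and 632 lower on day 10. It called 596 (440 and 156) with all 8 grafts, 591 without the graft type term, 568 after cyclic loess and 2973 (1802 and 1171) with an intensity trend. Leaving out 1 array, with no graft type term, left 0 to 47 calls: 39 without PSI of day 10, 11 without PSI-F of day 10, 47 without PSI-F of day 7 and 0 without PSI of day 7, where 11660 probe sets had an unadjusted p under 0.05. In these fits the lone array of a day is assumed to vary like the other pair. No paired analysis by replicate number was possible because each condition has 1 array, so graft type served as the pair (591 calls without it). The 286 genes higher and 85 lower by 2-fold in both graft types numbered 61 and 3 at 4-fold and 708 and 408 at 1.5-fold. They numbered 479 and 181 when the mean of both graft types had to pass, 389 and 268 in PSI alone and 745 and 320 in PSI-F alone, and 271 and 94 after loess. Of 48 lists 14 had a median of the mean difference past 0.5, with medians of 1 sign in both graft types, and 8 did with the mean of a gene's probe sets. With a mean level of at least 4, 10 list medians moved by more than the SD between graft types. Named genes were recomputed under 3 of these settings. Of 321, 122 lost a limma call with all 8 grafts and 90 after loess, and 58 moved by more than that SD with the mean of a gene's probe sets, while no called gene changed sign after loess or with that mean. Values near the array medians are close to background and limit precision.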
